A study of Homo sapiens with 12 samples.

Results

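PHACTR3 and KCNN4 are the 2 genes described here, of 26415 gene symbols in the tables. They were chosen by their siLARP4B against siControl log2 fold changes, which had opposite signs in the prostate line PC3 and the osteosarcoma line MG63. Their siLARP4B values are therefore given as a description, without a test. A gene's level is that of its transcript model with the highest fragment sum across the 12 libraries, and the other models are described further on.

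Poly(A) RNA was sequenced from PC3, a human prostate adenocarcinoma line, and MG63, a human osteosarcoma line, both labelled wild type. Each line was transfected for 72 h with 10 nM siRNA and Lipofectamine RNAiMAX, without antibiotics. The 3 groups of each line received a non-targeting siRNA (siControl), siRNA against LARP4A (siLARP4A) or siRNA against LARP4B (siLARP4B), with 2 libraries a group. The gene of LARP4A has the symbol LARP4, and the siRNA sequences are not given in the labels. PC3 was grown in RPMI 1640 and MG63 in Alpha-MEM, so line and medium cannot be told apart. In bulk RNA, fewer cells with a transcript and less of it per cell cannot be told apart either. The design text calls the 2 libraries of a group biological replicates, and a p-value here measures the spread between such libraries.

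PHACTR3 encodes a member of the phosphatase and actin regulator family, proteins that bind protein phosphatase 1 and, through RPEL repeats, monomeric actin. KCNN4 encodes KCa3.1, the intermediate-conductance calcium-activated potassium channel. Calmodulin bound to the channel opens it when cytosolic calcium rises, and the potassium efflux keeps the membrane negative, which favours further calcium entry. LARP4A and LARP4B, 2 La-related RNA-binding proteins, associate with poly(A) tails and poly(A)-binding protein and affect mRNA stability and translation.

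PHACTR3 lies on chromosome 20 at 59577509 to 59847711 of hg38, on the plus strand, and its models begin at 5 different first exons joined to the same second exon. The 2 sequences below are the splice junctions of the first exons whose end is coding, in models 1 and 2. They are shown because fragments counted only through the first exon of model 1 were found in MG63 and not in PC3. Lower case is the end of the first exon and capitals mark the first bases of the shared exon 2. The last bases of the first exon are at chromosome 20 position 59577617 in model 1 and 59605132 in model 2.
PHACTR3 model 1: ccgccgcccgagatcctgcgcaagATGAGA
PHACTR3 model 2: ccgcggacgccggggagaacccagATGAGA
The third sequence is a coding exon of 210 bases, or 70 codons, at 59767186 to 59767395. It is present in models 1 to 5 and skipped in model 6, and it too separated the lines. Sequences are from GENCODE release 29 on GRCh38.
PHACTR3 skipped exon: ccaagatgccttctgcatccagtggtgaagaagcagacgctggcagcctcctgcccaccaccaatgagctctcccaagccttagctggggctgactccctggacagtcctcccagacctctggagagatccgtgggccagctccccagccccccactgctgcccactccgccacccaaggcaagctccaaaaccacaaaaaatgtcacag

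Library totals ran from 16950119 to 24864977 fragments. Most defining markers of the 2 lines were present in the right line. EPCAM was at 18.6 to 25.3 FPKM in PC3 and at most 0.066 in MG63, and COL1A1 was at 719 to 1337 FPKM in MG63 and at most 8.90 in PC3. The osteoblast factor RUNX2 was low in MG63, at 0.140 to 0.654 FPKM, and the endothelial marker CDH5 was at 1.96 to 6.48 FPKM there. The blood markers CD3E and HBB had no fragment in any library. The targeted genes followed the labels. After siLARP4A, LARP4 was 8.03-fold lower in PC3 (adjusted p = 1.06e-18 by edgeR, SE 0.066 in log2) and 3.83-fold lower in MG63 (adjusted p = 3.51e-14 by edgeR, SE 0.073). After siLARP4B, LARP4B was 5.59-fold lower in PC3 (adjusted p = 4.75e-16 by edgeR, SE 0.080) and 3.22-fold lower in MG63 (adjusted p = 2.12e-13 by edgeR, SE 0.074). The knockdowns were deeper in PC3, and LARP4 rose by a log2 of 0.44 in MG63 after siLARP4B (adjusted p = 5.22e-06 by edgeR, SE 0.059).

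Levels are given in FPKM, fragments per kilobase of the model's mRNA scaled to the library total, with the fragment count behind each. In PC3 with siControl, PHACTR3 was at 8.80 FPKM (356 fragments) and 10.1 FPKM (433 fragments) in the 2 libraries. After siLARP4A in PC3 it was at 7.14 FPKM (400 fragments) and 7.75 FPKM (331 fragments). After siLARP4B in PC3 it was at 5.96 FPKM (257 fragments) and 5.74 FPKM (219 fragments). Each pair was lower than the one before it, and the 3 groups did not overlap. In MG63 with siControl, PHACTR3 was at 2.50 FPKM (102 fragments) and 3.16 FPKM (136 fragments). After siLARP4A in MG63 the 2 libraries held 2.95 FPKM (116 fragments) and 2.61 FPKM (109 fragments). After siLARP4B in MG63 they held 6.93 FPKM (306 fragments) and 6.97 FPKM (296 fragments). Both siLARP4A libraries lay within the siControl range in MG63, and both siLARP4B libraries lay far above it.

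KCNN4 lies on chromosome 19 at 43766533 to 43780973 of hg38, on the minus strand, with 1 model of 1956 bases. In PC3 with siControl, KCNN4 was at 33.0 FPKM (1159 fragments) and 31.3 FPKM (1165 fragments). After siLARP4A in PC3 it was at 21.8 FPKM (1059 fragments) and 25.5 FPKM (945 fragments). After siLARP4B in PC3 it was at 55.6 FPKM (2084 fragments) and 58.1 FPKM (1926 fragments). The 2 knockdowns thus lay on opposite sides of siControl in PC3, without overlap. In MG63 with siControl, KCNN4 was at 5.54 FPKM (196 fragments) and 5.84 FPKM (218 fragments). After siLARP4A in MG63 it was at 6.17 FPKM (211 fragments) and 6.64 FPKM (241 fragments). After siLARP4B in MG63 it was at 1.91 FPKM (73 fragments) and 1.95 FPKM (72 fragments). In MG63 the siLARP4B libraries were the lowest of all 12, and the siLARP4A libraries lay just above siControl.

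**Figure D1:**
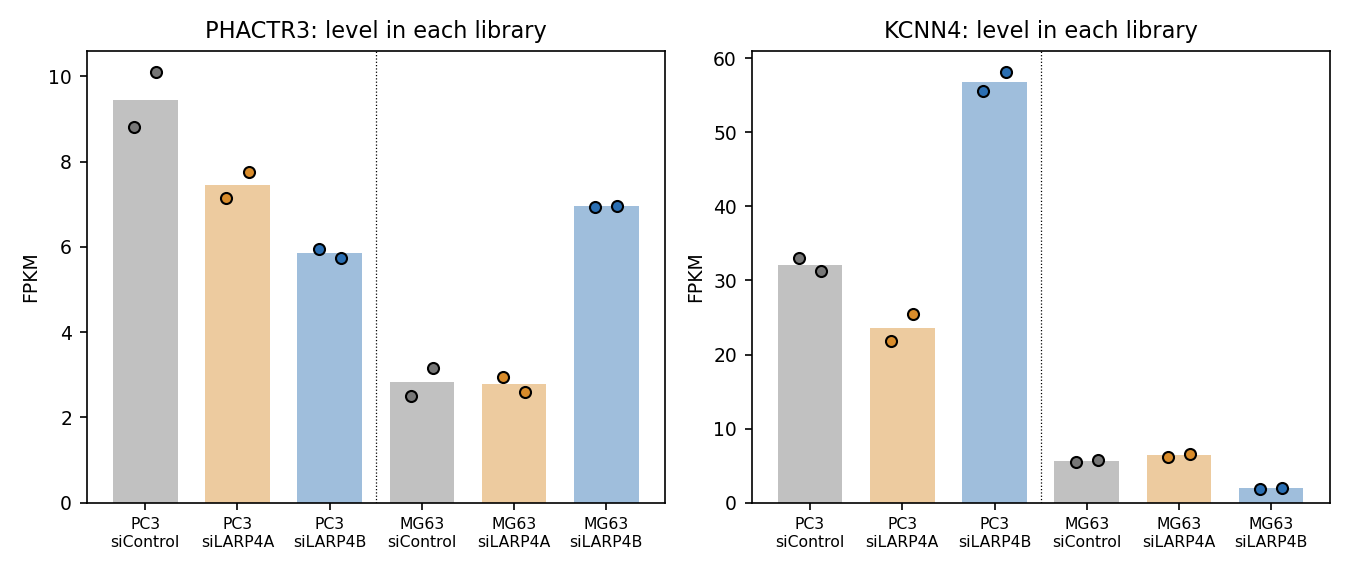
FPKM (y axis, linear, from 0) of PHACTR3 (left) and KCNN4 (right) in the 6 groups, with bars at the group mean and a point for each of the 2 libraries. After siLARP4B, PHACTR3 reached 6.95 FPKM on average in MG63 and 5.85 in PC3, while KCNN4 stood at 1.93 in MG63 and 56.8 in PC3.

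The siLARP4B values, which chose these genes, mirrored each other. PHACTR3 after siLARP4B was at 61.9% of its mean siControl FPKM in PC3 and at 245% in MG63. KCNN4 was at 177% in PC3 and at 33.9% in MG63. In the edgeR fit this was a log2 fold change for PHACTR3 of -0.73 in PC3 (SE 0.105) and 1.32 in MG63 (SE 0.123). For KCNN4 it was 0.78 in PC3 (SE 0.068) and -1.53 in MG63 (SE 0.139). The effect in PC3 minus that in MG63 was -2.05 for PHACTR3 (SE 0.162) and 2.31 for KCNN4 (SE 0.154). In both genes the log2 change was larger in MG63, where the LARP4B knockdown was the shallower of the 2.

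Opposite calls in the 2 lines were uncommon across the transcriptome. An edgeR adjusted p under 0.05 was reached after siLARP4B by 44.7% of the 15668 genes tested in PC3 and by 35.1% in MG63. In both lines and the same direction it was 16.4%, and in both lines and opposite directions 3.53%, or 553 genes. Of these, 312 (1.99%) were lower in PC3 and higher in MG63, as PHACTR3 was, and 241 (1.54%) the reverse, as KCNN4 was. For siLARP4A the share in opposite directions was 1.19%, and in the same direction 14.7%. The siLARP4B effect differed between lines for 27.9% of genes. In 7048 genes the siControl or the siLARP4B mean reached 5 FPKM in each line, and 373 of these moved in opposite directions, 10 of them by at least 1.5-fold in each line. By the size of the difference between lines KCNN4 ranked 1 of the 373 and PHACTR3 ranked 3, with the histone gene H2AW between them at a log2 difference of 2.13. These shares and ranks come from the contrasts that chose the 2 genes and describe that choice.

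After siLARP4A, a contrast that did not choose the genes but shares their siControl libraries, both were lower in PC3. Of all genes tested, 36% passed the threshold in PC3 after siLARP4A, and both PHACTR3 and KCNN4 did. KCNN4, the channel gene, fell by 0.46 on the log2 scale (adjusted p = 2.69e-05 by edgeR, SE 0.072), a 1.38-fold lower level. PHACTR3 fell by 0.36 (adjusted p = 0.00655 by edgeR, SE 0.099), a 1.28-fold lower level. The PHACTR3 call was lost without PC3 siControl replicate 2 (log2 -0.24, edgeR adjusted p = 0.159) and without PC3 siLARP4A replicate 1 (log2 -0.27, edgeR adjusted p = 0.0871). It was also lost with DESeq2 (log2 -0.34, adjusted p = 0.057). Leaving out any 1 library kept KCNN4 past the threshold, with log2 values from -0.54 to -0.32.

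In MG63, siLARP4A moved neither gene past the threshold, which 26.4% of all genes tested passed there. PHACTR3 differed by a log2 of -0.015 (adjusted p = 0.972 by edgeR, SE 0.145), with a 95% interval of -0.32 to 0.29. KCNN4 was 0.19 higher in log2 (adjusted p = 0.226 by edgeR, SE 0.111), with an interval of -0.04 to 0.42. Its 2 siLARP4A libraries lay above both siControl libraries, so the groups did not overlap although the test was not passed. The siLARP4A effect differed between lines for KCNN4, by -0.65 (adjusted p = 0.00215 by edgeR, SE 0.132), a test that 11.4% of genes passed. For PHACTR3 the difference of -0.34 did not pass it (adjusted p = 0.245 by edgeR, SE 0.176).

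KCNN4 therefore had the opposite order of the 2 knockdowns in the 2 lines. Its siLARP4A level minus its siLARP4B level was a log2 of -1.24 in PC3 (SE 0.070) and 1.72 in MG63 (SE 0.136). For PHACTR3 it was 0.38 in PC3 (SE 0.107) and -1.33 in MG63 (SE 0.124). These values share the siLARP4B libraries with the contrasts that chose the genes and carry no test.

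**Figure D2:**
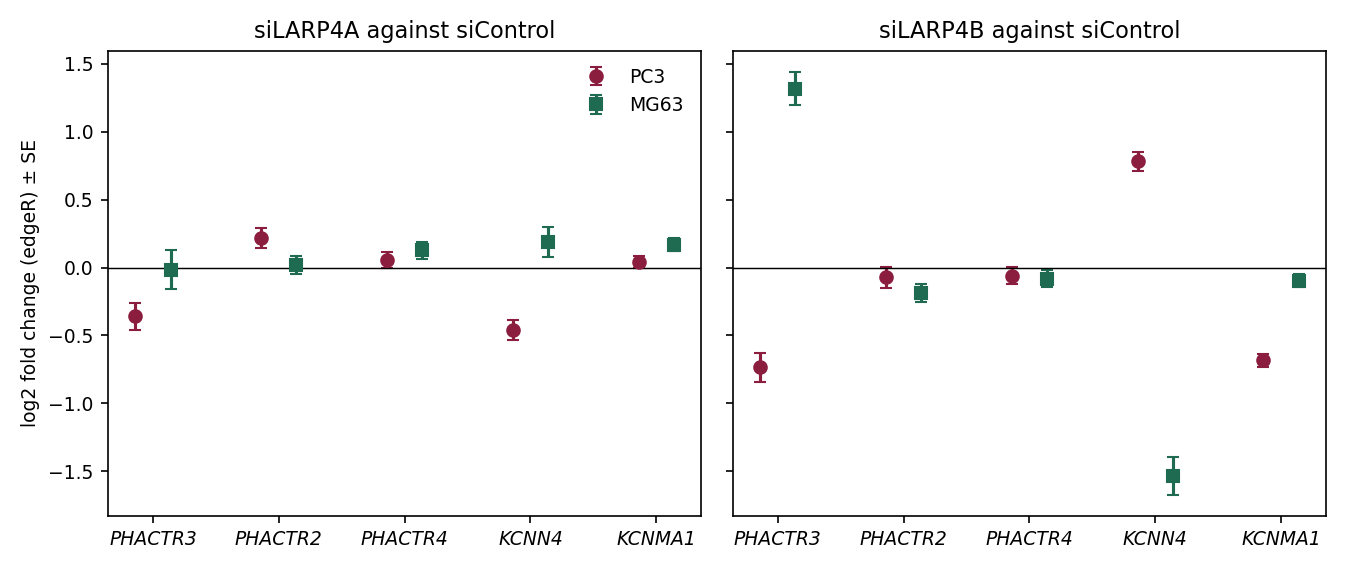
Log2 fold change against siControl (y axis, edgeR estimate with bars of 1 SE) after siLARP4A (left) and siLARP4B (right) for PHACTR3, PHACTR2, PHACTR4, KCNN4 and KCNMA1 in PC3 (circles) and MG63 (squares). After siLARP4B, PHACTR3 stood at -0.73 and 1.32 and KCNN4 at 0.78 and -1.53, and the relatives PHACTR2, PHACTR4 and KCNMA1 lay between -0.68 and -0.06 in both lines.

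Without knockdown, both genes were higher in PC3. With siControl, PHACTR3 was at 9.45 ± 0.915 FPKM (SD, n = 2) in PC3 and 2.83 ± 0.467 in MG63, a log2 difference of 1.57 in the fit (adjusted p = 3.17e-11 by edgeR, SE 0.119). KCNN4 was at 32.1 ± 1.21 FPKM in PC3 and 5.69 ± 0.211 in MG63, a log2 difference of 2.34 (adjusted p = 1.05e-16 by edgeR, SE 0.089). Such a difference is common between the lines, as 81.8% of the genes tested passed this threshold. The ratio of FPKM means, PC3 over MG63, was 3.33 for PHACTR3 with siControl, 2.68 with siLARP4A and 0.841 with siLARP4B. For KCNN4 it was 5.65 with siControl, 3.69 with siLARP4A and 29.5 with siLARP4B. After siLARP4B the PHACTR3 mean was thus lower in PC3 than in MG63, and the KCNN4 gap was wider than in the other groups.

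Ordered by mean FPKM, the PHACTR3 groups were PC3 siControl (9.45 ± 0.915, SD, n = 2), PC3 siLARP4A (7.45 ± 0.429), MG63 siLARP4B (6.95 ± 0.024), PC3 siLARP4B (5.85 ± 0.154), MG63 siControl (2.83 ± 0.467) and MG63 siLARP4A (2.78 ± 0.241). The last 2 groups overlapped. The gap between PC3 siLARP4A and MG63 siLARP4B was close to the spread of the former and was not tested. The KCNN4 groups were PC3 siLARP4B (56.8 ± 1.76), PC3 siControl (32.1 ± 1.21), PC3 siLARP4A (23.6 ± 2.61), MG63 siLARP4A (6.41 ± 0.327), MG63 siControl (5.69 ± 0.211) and MG63 siLARP4B (1.93 ± 0.0325). No neighbours in that order overlapped, but MG63 siLARP4A and siControl did not differ past the threshold. On the FPKM scale KCNN4 was above PHACTR3 in 5 of the 6 groups and below it in MG63 with siLARP4B.

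PHACTR3 has 6 transcript models in the tables, and their counts differed in makeup between the lines. The models share 11 exons of 1933 bases. They differ in the first exon and in the skipped exon printed above. A fragment in a shared exon is counted in every model, so a model's excess over the others counts the fragments assigned through its own part. In PC3, model 1 and model 6 had equal counts in all 6 libraries. Of 1996 PC3 fragments, 0 were assigned only through the 109-base first exon of model 1 and 0 only through the 210-base exon, where a limit of 3 counts allows a share of up to 0.150% for each and the 95% exact Clopper-Pearson interval reaches 0.185%. Models 3, 4 and 5 also equalled model 1 there, and model 2 had 1 fragment more, in siLARP4B replicate 1. Apart from that fragment, the equal counts show no PC3 fragment assigned only through a first exon, that of model 6 included. Fragments that also reach a shared exon may be counted in every model. Equal counts therefore do not show which first exons were in use. Which model the PC3 fragments came from is therefore not shown.

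In MG63 both parts held fragments in every library. The first exon of model 1 held 4 of 102 and 8 of 136 PHACTR3 fragments with siControl, 8 of 116 and 7 of 109 with siLARP4A, and 17 of 306 and 19 of 296 with siLARP4B. The pooled share was 63 of 1065 fragments, or 5.92% (95% exact Clopper-Pearson interval 4.58% to 7.51%), and this exon makes up 4.84% of the model's length. The skipped exon held 5 and 4 fragments with siControl, 1 and 1 with siLARP4A, and 8 and 12 with siLARP4B, which is 31 in all or 2.91% (1.99% to 4.11%). It makes up 9.32% of the model's length. The first exons of the other models added little, with 3 fragments in all for model 2. Intervals cover counting error only.

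Within MG63 the use of model 1's first exon did not separate the groups. Its share was 5.04% with siControl (2.63% to 8.64%), 6.67% with siLARP4A (3.78% to 10.8%) and 5.98% with siLARP4B (4.22% to 8.18%). The skipped exon's share was 3.78% (1.74% to 7.06%), 0.889% (0.108% to 3.17%) and 3.32% (2.04% to 5.08%) in the same order. The siLARP4A share was the lowest, with 2 fragments, and its interval overlaps both others. The siLARP4B values were nearly the same whichever model was counted, but the models count mostly the same fragments. Models 1 and 6 each held 1996 fragments in PC3, and 1065 and 971 in MG63. Their likeness is thus largely given by the shared exons and is not separate support. By mean FPM, the log2 ratio of siLARP4B to siControl in MG63 was 1.29 for both model 1 and model 6, which lacks both parts, and in PC3 it was -0.69 for each.

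**Figure D3:**
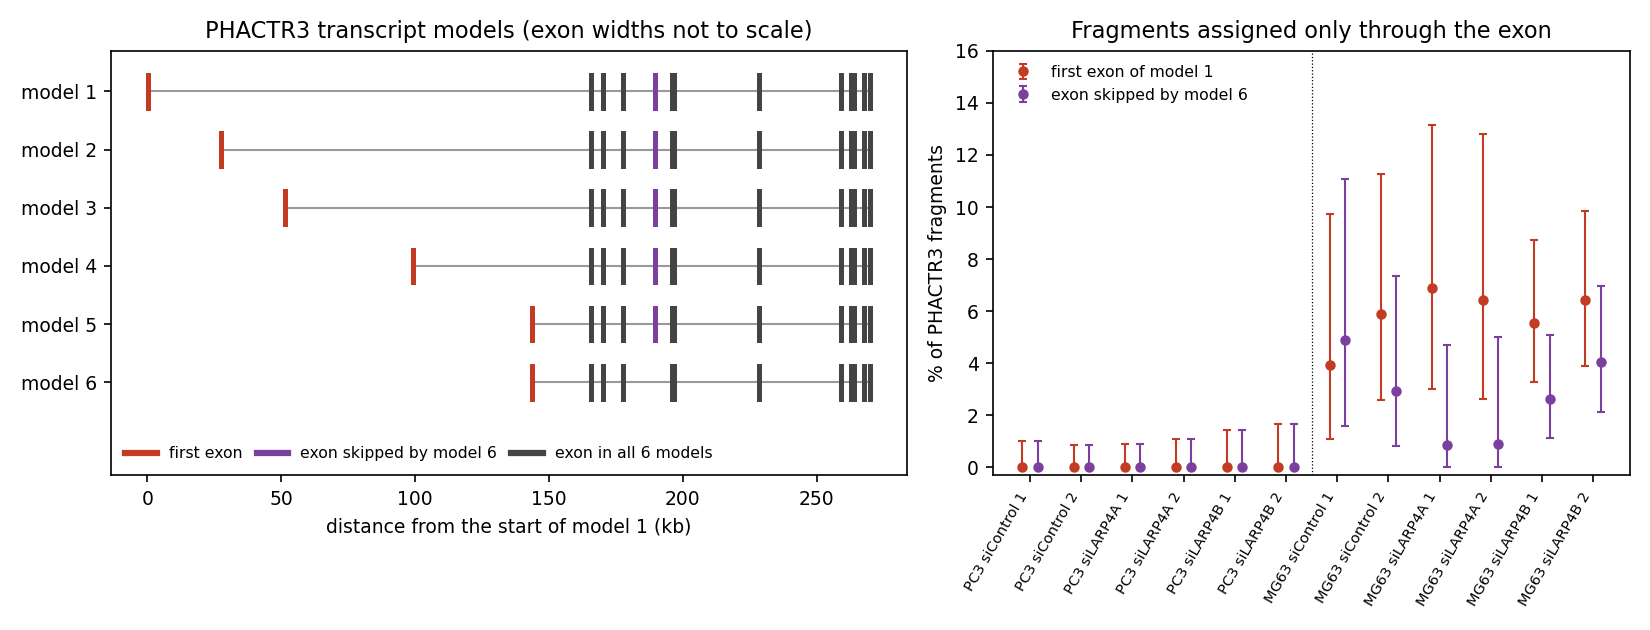
Left, the 6 PHACTR3 models along the gene (x axis, kb from the start of model 1), with first exons, the exon skipped by model 6 and the shared exons in different colours and exon widths not to scale. Right, the percentage of PHACTR3 fragments in each library assigned only through the first exon of model 1 or the skipped exon, with 95% exact intervals; all 6 PC3 libraries are at 0 and MG63 first exon shares run from 3.92% to 6.90%.

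Few genes showed such a contrast. Of 1622 genes with at least 3 different starts and 300 fragments in each line, 2 (0.123%) had models equal within 0.5% in PC3 and at least 5% apart in MG63, which were PHACTR3 and ZBTB7C. Another 2 genes had the reverse. The spread between the PHACTR3 models was 0.05% of its fragments in PC3 and 8.83% in MG63, against medians over the 1622 genes of 13.5% and 13.8%. These bounds were set after the PHACTR3 values were seen. How fragments at exon edges and junctions were assigned is not given in the sources used here, and FPKM divides by the length of model 1 in both lines. The antisense gene PHACTR3-AS1, which overlaps an intron, had 0 fragments in all 12 libraries.

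The other PHACTR genes changed little. Of 3 tested, 1 changed after siLARP4A in PC3 (higher), 0 in MG63, 0 after siLARP4B in PC3 and 1 in MG63 (lower). PHACTR2 rose by a log2 of 0.22 after siLARP4A in PC3 (adjusted p = 0.0211 by edgeR, SE 0.073) and fell by 0.19 after siLARP4B in MG63 (adjusted p = 0.0302 by edgeR, SE 0.067). PHACTR4, at 10.4 FPKM in PC3 and 9.10 in MG63 with siControl, passed in none of the 4 contrasts, with log2 values of 0.06 and 0.13 after siLARP4A and -0.06 and -0.08 after siLARP4B. PHACTR1 was listed at 0 in PC3 siControl and at 0.665 FPKM in MG63 siControl. In the tested lists of related genes, which leave out PHACTR3 and KCNN4, 38 of 70 genes (54.3%, against 36% of all genes tested) passed after siLARP4A in PC3, 20 higher and 18 lower. In MG63 29 did (41.4%, against 26.4%), 22 higher and 7 lower. Better expressed genes passed more often than all genes. Of 9885 with a mean of at least 5 FPKM in any group, fitted alone, 4877 passed after siLARP4A in PC3 and 3618 in MG63. After siLARP4B 5706 and 4548 of them did. Of the list genes, 34 passed after siLARP4B in PC3 (48.6%, against 44.7%), 12 higher and 22 lower, a share near that of all genes. In MG63 34 passed (48.6%, against 35.1%), 18 higher and 16 lower. The last count was 21 without MG63 siControl replicate 1.

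Protein phosphatase 1, the enzyme PHACTR proteins bind, was represented by 13 tested catalytic and regulatory genes. After siLARP4A 2 rose and 1 fell in PC3 (median log2 0.04, all genes 0.00), and 3 rose and 1 fell in MG63 (median 0.06, all genes 0.01). After siLARP4B 2 rose and 4 fell in PC3 (median -0.06, all genes 0.00), and 5 rose and 3 fell in MG63 (median 0.08, all genes 0.00). In PC3 and MG63 the shares passing after siLARP4A were 23.1% and 30.8%, against 36% and 26.4% of all genes tested. After siLARP4B they were 46.2% and 61.5%, against 44.7% and 35.1%. PPP1CC rose by 0.42 after siLARP4B in MG63 (adjusted p = 1.86e-07 by edgeR, SE 0.044) and was at 0.01 in PC3 (adjusted p = 0.852). PPP1CA rose by 0.21 in MG63 (edgeR adjusted p = 0.00406) and was at -0.11 in PC3 (edgeR adjusted p = 0.101). PPP1CB fell by 0.26 in PC3 after siLARP4B (edgeR adjusted p = 0.00041) and was at 0.00 in MG63, and it fell after siLARP4A in both lines, by 0.44 and 0.32. PPP1R15A, which directs the phosphatase to the translation factor eIF2alpha, rose in PC3 by 0.49 and fell in MG63 by 0.31 after siLARP4B, the direction KCNN4 took. It rose in both lines after siLARP4A, by 0.49 and 0.25. Its paralogue PPP1R15B rose after siLARP4A in both lines, by 0.41 and 0.38, and fell after siLARP4B in PC3 by 0.42. PPP1R13L, a p53-binding inhibitor, rose by 0.50 after siLARP4A in MG63 and fell after siLARP4B by 0.39 in PC3 and 0.35 in MG63. PPP1R14B, a phosphatase inhibitor, fell after siLARP4B by 0.49 in PC3 and 0.23 in MG63.

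Genes of actin and of the actin-regulated transcription factor pair MRTF and SRF, which share monomeric actin with PHACTR proteins, numbered 15. In PC3 4 rose and 4 fell after siLARP4A (median log2 0.03), and 4 rose and 5 fell after siLARP4B (median 0.06). In MG63 4 rose and 1 fell after siLARP4A (median 0.06), and 5 rose and 3 fell after siLARP4B (median 0.10). The PC3 shares passing were 53.3% after siLARP4A and 60% after siLARP4B, against 36% and 44.7% of all genes tested. The MG63 shares were 33.3% and 53.3%, against 26.4% and 35.1%. After siLARP4A, the myosin light chain gene MYL9 rose by 1.37 in PC3 (adjusted p = 9.36e-06 by edgeR, SE 0.197), where it was at 0.503 FPKM with siControl, and by 1.05 in MG63 (adjusted p = 4.24e-09 by edgeR, SE 0.083). SRF itself rose by 0.32 in PC3 and 0.53 in MG63. CFL2 fell after siLARP4A by 0.47 in each line (edgeR adjusted p = 8.85e-06 in PC3 and 1.23e-04 in MG63). CCN1, a secreted matrix protein gene and SRF target, rose after siLARP4A in both lines, by 0.57 and 0.47, and after siLARP4B rose in PC3 by 0.38 and fell in MG63 by 0.26. After siLARP4B in PC3, the actin-binding gene TAGLN rose by 0.60 and the SRF coactivator gene MRTFB fell by 0.44. The actin gene ACTB fell after siLARP4B in both lines, by 0.43 in PC3 and 0.24 in MG63. The tropomyosin gene TPM1 rose by 0.41 in PC3 and 0.31 in MG63 after siLARP4B, and the adhesion gene VCL rose by 0.33 in MG63.

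None of the other calcium-activated potassium channel genes passed in both lines after siLARP4B, but so few genes say little about the family. Some were close to absent in 1 line, as KCNMB2 was at 0 FPKM in PC3 siControl and KCNN3 at 0.021 in MG63 siControl. Of 5 tested, 2 fell in PC3 after each siRNA, 1 rose in MG63 after siLARP4A, and 0 passed in MG63 after siLARP4B. The PC3 share of 40% after each siRNA was near the 36% (siLARP4A) and 44.7% (siLARP4B) of all genes tested. In MG63 26.4% and 35.1% of all genes passed. KCNMA1, the large-conductance channel and the most abundant of these channel genes, was at 55.8 FPKM in PC3 and 24.7 in MG63 with siControl. It fell by 0.68 after siLARP4B in PC3 (adjusted p = 4.25e-11 by edgeR, SE 0.045), where KCNN4 was higher, and was at -0.10 in MG63 (adjusted p = 0.119). The effect of siLARP4B on KCNMA1 differed between lines by -0.59 (edgeR adjusted p = 6.79e-07). KCNN3, a small-conductance channel, fell in PC3 by 0.83 after siLARP4A and 1.29 after siLARP4B, from only 0.228 FPKM. KCNMB4, an accessory subunit, fell by 0.46 after siLARP4A in PC3 and was listed at 0 in MG63 siControl. The accessory subunit genes KCNMB2 and KCNMB3 passed in none of the 4 contrasts, and KCNN1, KCNN2 and KCNMB1 were too low to test.

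Among 8 tested regulators of the KCNN4 channel, 7 passed in PC3 after siLARP4A (3 higher and 4 lower), 6 in MG63 (3 and 3), and after siLARP4B 5 in PC3 (1 and 4) and 7 in MG63 (5 and 2). These are 87.5%, 75%, 62.5% and 87.5% of a short list, where 36%, 26.4%, 44.7% and 35.1% of all genes passed. All genes include many that are weakly expressed, and better expressed genes passed more often. Of 9885 genes with a mean of at least 5 FPKM in any group, fitted alone, 4877, 3618, 5706 and 4548 passed in the same order. The median log2 values were -0.16, 0.11, -0.10 and 0.20, against 0.00, 0.01, 0.00 and 0.00 over all genes. CALM2 and CALM3 encode calmodulin, the calcium sensor of the channel, and both passed in all 4 contrasts. CALM3 rose in each, by 0.40 and 0.30 after siLARP4A and by 0.31 and 0.47 after siLARP4B in PC3 and MG63. CALM2 fell in each, by 0.28, 0.14, 0.40 and 0.14 in the same order. Neither turned direction between the lines. PGAM5, a phosphatase reported to dephosphorylate the kinase that activates the channel, fell after siLARP4A by 1.15 in PC3 (adjusted p = 1.55e-12 by edgeR, SE 0.058) and by 0.83 in MG63 (adjusted p = 1.87e-09 by edgeR, SE 0.063). After siLARP4B it fell by 0.31 in PC3 and rose by 0.22 in MG63, a difference between lines of -0.53 (edgeR adjusted p = 4.73e-05). MTMR6, a lipid phosphatase that inhibits the channel, rose by 0.54 and 0.32 after siLARP4A and by 0.44 in MG63 after siLARP4B. PIK3C2B, a lipid kinase that activates it, rose by 0.31 and 0.84 after siLARP4A and by 0.35 in MG63 after siLARP4B.

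Of 17 genes of calcium entry, release and removal, 6 rose and 4 fell in PC3 after siLARP4A, and 8 rose and 2 fell in MG63. After siLARP4B 4 rose and 4 fell in PC3, and 3 rose and 3 fell in MG63. The shares passing in these 4 contrasts were 58.8%, 58.8%, 47.1% and 35.3%, against 36%, 26.4%, 44.7% and 35.1% of all genes tested. The siLARP4B shares were thus near those of all genes. The median log2 values in these 4 contrasts were 0.13, 0.21, 0.02 and 0.06. The store-operated channel gene ORAI2 rose after siLARP4A in both lines, by 0.57 and 0.35, and after siLARP4B in PC3 by 0.68. ITPR1, the calcium release receptor of the endoplasmic reticulum, fell by 0.38 after siLARP4A and by 0.98 after siLARP4B in PC3, and in MG63 it was at only 0.605 FPKM with siControl. ATP2B4, a plasma membrane calcium pump, rose after siLARP4A (0.43 and 0.27) and fell after siLARP4B (by 0.87 and 0.52) in both lines. SARAF, a brake on store-operated entry, fell by 0.44 after siLARP4A in PC3. In MG63, ITPR2 and the pump gene ATP2A3 rose after siLARP4A by 0.76 and 0.55, and the channel gene TRPV4 fell after siLARP4B by 0.89 from 1.11 FPKM.

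Of 9 transcription factor genes described at the KCNN4 promoter, which are REST, a repressor, SP1 and the FOS and JUN families, 4 rose and 3 fell in PC3 after siLARP4A and 3 rose and 0 fell in MG63. After siLARP4B 1 rose and 3 fell in PC3, and 0 rose and 4 fell in MG63. These are 77.8%, 33.3%, 44.4% and 44.4% of a short list, where 36%, 26.4%, 44.7% and 35.1% of all genes tested passed. The median log2 values were 0.01, 0.18, -0.09 and -0.15 in the same order. REST rose after siLARP4A by 0.40 in PC3 and 0.49 in MG63 and fell after siLARP4B by 0.27 in PC3. In PC3 after siLARP4A, FOS fell by 0.50 and JUN rose by 0.47. FOSL1, at 256 FPKM in PC3 and 140 in MG63 with siControl, fell after siLARP4B by 0.58 and 0.25. JUND rose in PC3 by 0.33 and fell in MG63 by 0.22 after siLARP4B, a difference between lines of 0.55 (edgeR adjusted p = 6.45e-05). JUNB rose by 0.73 in MG63 after siLARP4A and fell there by 0.39 after siLARP4B, with log2 values of 0.01 and 0.02 in PC3.

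No tested neighbour of PHACTR3 or KCNN4 passed in both lines in opposite directions after siLARP4B. Only 3.53% of all genes tested did, so its absence among so few neighbours says little about the loci. Within 250 kb of PHACTR3 lie 7 other genes, of which 3 could be tested. SYCP2, a meiotic chromosome axis gene 15.9 kb away, rose after siLARP4A in both lines, by 1.03 and 0.66, from 0.126 and 0.843 FPKM. FAM217B fell after siLARP4A by 0.33 and 0.39 and rose after siLARP4B in PC3 by 0.28. PPP1R3D, a glycogen-targeting phosphatase subunit gene 89.0 kb away, fell in PC3 after siLARP4B by 0.52. None of the 3 passed in MG63 after siLARP4B, where their log2 values lay between -0.42 and 0.04.

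Within 250 kb of KCNN4 lie 22 genes, of which 20 were tested. After siLARP4A 1 rose and 4 fell in PC3 (36% of all genes tested passed), and 2 rose and 1 fell in MG63 (26.4%). After siLARP4B 1 rose and 4 fell in PC3 (44.7% of all genes tested passed), and 3 rose and 6 fell in MG63 (35.1%). The nearest, SMG9 (a nonsense-mediated decay factor, 11.6 kb away), fell after siLARP4B in both lines, by 0.25 in PC3 and 0.43 in MG63, and after siLARP4A in PC3 by 0.37. On the other side LYPD5, 14953 bases away, fell by 2.52 in PC3 after siLARP4B from only 0.436 FPKM. PLAUR, the urokinase receptor gene 96.4 kb away, rose after siLARP4A by 0.52 in PC3 and 0.41 in MG63. ETHE1, a mitochondrial sulfur dioxygenase gene 239 kb away, fell in PC3 after siLARP4A by 0.85 and rose after siLARP4B in both lines, by 0.82 and 0.61. CADM4, a cell adhesion gene, fell by 0.94 in MG63 after siLARP4B. XRCC1, a DNA repair gene, fell after siLARP4B by 0.45 in PC3 and 0.28 in MG63 and after siLARP4A in MG63 by 0.20, and ZNF576 fell after siLARP4B by 0.50 and 0.31. ZNF428 fell by 0.58 in PC3 after siLARP4A and by 0.40 in MG63 after siLARP4B. SRRM5 lies within ZNF428 on the other strand and fell by 0.66 and 0.38 in the same contrasts, values that cannot be told apart from those of ZNF428 without strand. ZNF45 rose in MG63 after each siRNA, by 0.37 and 0.38, and ZNF404 after siLARP4B, by 0.89.

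The genes whose pattern was most like each member were found by Pearson r over the 12 libraries, on log2 CPM (counts scaled to library size) with each line's mean removed. The 6747 genes compared averaged at least 5 FPKM over each line's libraries, which neither PHACTR3 nor KCNN4 reached in MG63 (4.19 and 4.67). Over the 12 libraries PHACTR3 and KCNN4 had an r of -0.879 with each other. These include the siLARP4B libraries, whose values chose the genes. In them PHACTR3 lay at -0.347 and -0.388 in PC3 and at 0.881 and 0.879 in MG63. KCNN4 lay at 0.635 and 0.71 in PC3 and at -1.081 and -1.056 in MG63. The negative r between the genes therefore largely describes that choice. The r values of other genes with each member rest on the same libraries. The libraries share line, siRNA and depth, so r describes these samples and has no p. For PHACTR3 the highest r belonged to FH (0.959), PRDX1 (0.952), EIF2B3 (0.948), SETD3 (0.947) and MMACHC (0.946). The lowest belonged to SERINC2 (-0.944), CIC (-0.943), LPXN (-0.940), ATXN7L3B (-0.939) and TCIRG1 (-0.927). FH encodes fumarase, a mitochondrial citric acid cycle enzyme, and PRDX1 a peroxidase. Their changes were smaller than those of PHACTR3. FH was at 120.1, 116.8 and 116.2 FPKM in PC3 with siControl, siLARP4A and siLARP4B, and at 61.6, 58.4 and 69.6 in MG63. PRDX1 was at 684, 630 and 610 FPKM in PC3 and at 248, 229 and 335 in MG63.

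For KCNN4 the highest r belonged to ALDH3B1 (0.984), ALDH7A1 (0.976), FAM43A (0.957), LRP10 (0.956) and CITED4 (0.947). The lowest belonged to CDKN2C (-0.981), SEPTIN11 (-0.976), STK17A (-0.974), CCT2 (-0.973) and EIF4A1 (-0.967). ALDH3B1, an aldehyde dehydrogenase gene, came closest in size too, at 5.03, 3.92 and 8.61 FPKM in PC3 and 12.2, 13.8 and 5.87 in MG63 in the same group order. Unlike KCNN4 it was higher in MG63 than in PC3 with siControl. CDKN2C, which encodes a cyclin-dependent kinase inhibitor, ran the other way, at 53.5, 62.5 and 43.9 FPKM in PC3 and 57.7, 53.9 and 78.6 in MG63.

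**Figure D4:**
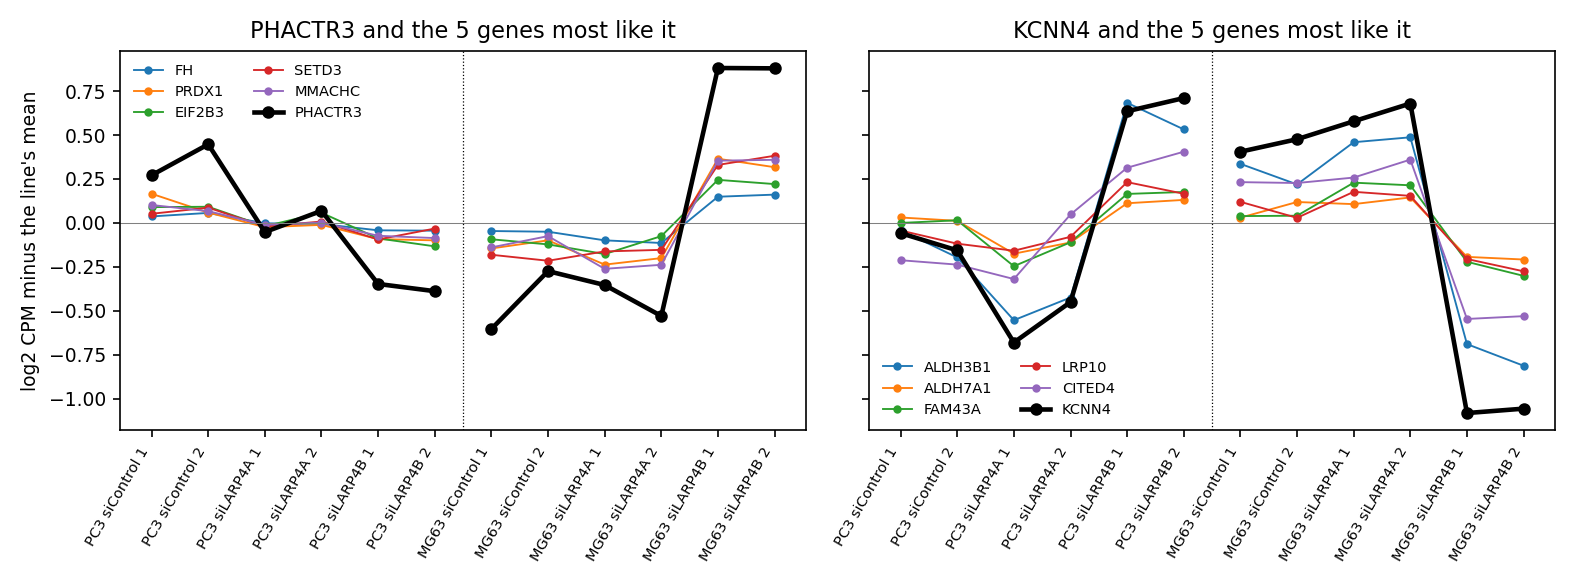
Log2 CPM minus the line's mean (y axis) in the 12 libraries (x axis) for PHACTR3 (left) and KCNN4 (right) in black, each with the 5 genes of highest r in colour; lines join libraries for legibility only. The coloured curves follow the black ones in shape, with r of at least 0.946 for PHACTR3 and 0.947 for KCNN4, and most have a smaller amplitude.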

How the data were processed

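Each library has 1 table of 86394 transcript models. The deposited fragment count is a whole number per model, and fragments in exons shared by several models are counted in each, as the values show. The deposited FPM signal scales each count to the library's own total, and because shared fragments recur it sums to 3198732 to 3448919 per library. The deposited FPKM values equal FPM per kilobase of mRNA, as checked on the values. The submitters' processing notes name hg38, FastQC, HISAT2, featureCounts and edgeR, without versions or roles. The annotation and strand setting are not given in the sources used here, so genes overlapping on opposite strands cannot be separated. PC3 siControl replicate 2 has a second, deduplicated table, used only as an alternative.

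Models on chromosomes 1 to 22 and X were kept (77879). Of 28163 symbols, 1748 found at several loci or on other sequences were left out. The 26415 others were each represented by the model with the highest summed count. Counts were fitted with edgeR 4.0.16 in R 4.3.3 (quasi-likelihood F-test, TMM, default expression filter, 1 fit of 12 libraries with a mean per group, 15668 genes tested, two-sided). Benjamini-Hochberg adjustment ran over all tested genes, with a threshold of 0.05. SE is the log2 fold change divided by the square root of F. The step was tested on simulated data. The tested contrasts share siControl libraries with those that chose the 2 genes. Model exons were taken from GENCODE release 29. Its models differ from the deposited ones by 0 to 16 bases, summed over start, end and mRNA length.

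Both genes and all gene lists were chosen with earlier results of these data known. Of 77 list genes 70 were tested, and PPP1R10, PPP1R11, PPP1R18 and TRIM27 were left out as symbols at several loci. Named from each list and contrast are at most 4 genes past the threshold, the largest change first, with a mean of at least 1 FPKM in either line, as well as all members of the 2 gene families and all neighbours past the threshold. Values of a named gene in other contrasts, and CALM2, CALM3 and the phosphatase catalytic genes, were added after values were seen. Replicates differed by more than counting error (chi-square per degree of freedom 1.65 to 6.44). Alternatives were DESeq2 1.42.0 and its size factors, limma 3.58.1 on log2(FPKM + 1) and log2(FPKM + 0.1), other filters, the longest or shortest model, the deduplicated table, only the contrast's libraries, a replicate block, and leaving out each library.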

Additional observations from a re-analysis of the deposited data

Results flagged for a closer look

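These results were picked out because the effect of an siRNA differed between PC3 and MG63 by the edgeR interaction test (adjusted p under 0.05), each given as the log2 effect in PC3 minus that in MG63. They cover only genes named in the report, and other list genes passed too. Over all lists, 11 of 70 genes (15.7%) passed after siLARP4A and 27 (38.6%) after siLARP4B, against 11.4% and 27.9% of all genes tested. Of 9885 genes with a mean of at least 5 FPKM in any group, fitted alone, 1722 and 3552 passed. By list, 3 and 7 of the 17 calcium genes, 2 and 5 of the 15 actin and SRF genes and 4 and 4 of the 9 transcription factor genes did. For PHACTR3 (-2.053) and KCNN4 (2.313) after siLARP4B the difference was not tested, since the genes were chosen on it. All libraries of each moved one way in PC3 and the other way in MG63.

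After siLARP4A the difference for KCNN4 was -0.651. The target LARP4 differed by -1.068 after siLARP4A and -0.503 after siLARP4B, and LARP4B by -0.795 after siLARP4B.

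Among phosphatase genes after siLARP4B, the differences were -0.325 for PPP1CA, -0.266 for PPP1CB, -0.405 for PPP1CC, 0.801 for PPP1R15A, -0.309 for PPP1R15B and -0.259 for PPP1R14B. Among actin and SRF genes they were 0.637 for CCN1, -0.244 for SRF, -0.194 for ACTB and -0.366 for VCL. VCL also differed after siLARP4A, by -0.228.

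Among channel and calmodulin genes after siLARP4B, KCNMA1 differed by -0.588, MTMR6 by -0.326 and CALM2 by -0.266. PGAM5 differed by -0.321 after siLARP4A and -0.525 after siLARP4B, and PIK3C2B by -0.528 after siLARP4A. Among calcium genes, ORAI2 (0.553), ITPR1 (-1.276) and ATP2B4 (-0.356) differed after siLARP4B, and SARAF (-0.36) and ITPR2 (-0.668) after siLARP4A.

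Among transcription factors, FOS (-0.926), JUN (0.427), JUNB (-0.716) and FOSL1 (-0.266) differed after siLARP4A, and JUNB (0.405), FOSL1 (-0.33) and JUND (0.548) after siLARP4B. Among neighbours, ETHE1 (-0.678), ZNF428 (-0.461) and SMG9 (-0.412) differed after siLARP4A, and PPP1R3D (-0.452) and CADM4 (0.877) after siLARP4B.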

How the results depend on the processing

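Each of the 8 tests of PHACTR3 and KCNN4 was repeated under 11 alternatives and without each of the 12 libraries. All 4 KCNN4 tests, both PC3 against MG63 siControl tests and the PHACTR3 difference between lines after siLARP4A kept their direction and their side of the threshold throughout. The fall of PHACTR3 in PC3 after siLARP4A ran from a log2 of -0.416 to -0.239 without 1 library, and DESeq2 gave -0.343 (adjusted p = 0.057). Its value in MG63, near 0, turned sign to 0.008 with the shortest model and ran from -0.176 to 0.153 without 1 library, positive without MG63 siControl replicate 2 and without MG63 siLARP4A replicate 2 (0.064). The cause was not tested. List genes changed after siLARP4B in MG63 numbered 21 to 39 without 1 library, the lowest without MG63 siControl replicate 1, and 29 with the replicate block. With replicate number as a block, the siLARP4A log2 values were -0.355 and -0.461 in PC3 and -0.014 and 0.190 in MG63 for PHACTR3 and KCNN4, and no call of theirs changed. Correlations of same-numbered deviations over 11258 genes lay between -0.059 and 0.086, so no strong shared deviation was seen. In MG63 they were all slightly positive (0.075, 0.07 and 0.086). Such low values cannot show whether same-numbered libraries were prepared together. The lowest counts were 102 fragments for PHACTR3 and 72 for KCNN4, which limits precision in MG63.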
